A study of Mus musculus with 8 samples.

Results

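The 36 genes described here are the listed targets and partners of ATF4, the transcription factor of the amino acid response, together with the cytosolic tRNA synthetases. They were listed by name with no measured value in the rule, although with earlier results of these data known, and 35 of the 36 were rows of the table of 16889 genes. Vldlr was not analysed here. Grouped by role, they comprised 6 regulators (Atf4, Atf5, Ddit3, Cebpg, Nupr1, Trib3), 6 analysed stress effectors (Ddit4, Sesn2, Chac1, Ppp1r15a, Herpud1, Eif4ebp1), 11 enzymes of amino acid and one-carbon metabolism and 12 tRNA synthetases. The cells were CD11b+ cells positive for CCR2 or CD64, sorted from the colonic lamina propria of 8 female CD98ΔCX3CR1 littermates aged 6 to 12 weeks. Both groups carried CD98hc flox/flox and Cx3cr1CreER-YFP, an inducible Cre recombinase under the Cx3cr1 promoter. The 4 cKO mice received 100 µl tamoxifen at 20 mg/ml intraperitoneally on 5 consecutive days and the 4 control mice received corn oil, with the readout at day 7. Tamoxifen itself and the deletion therefore cannot be told apart, and the Cre acts only in cells that express or once expressed Cx3cr1, whereas the sort also held other cells.

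When a cell lacks amino acids, uncharged tRNAs activate the kinase GCN2, which phosphorylates eIF2alpha. Viral RNA, heme shortage and stress of the endoplasmic reticulum act on sister kinases with the same outcome. General translation then falls while translation of Atf4 mRNA rises, so that Atf4 activity is set largely above the level of its mRNA, and ATF4 with partners of the C/EBP family induces amino acid transporters, synthesis enzymes and tRNA synthetases. CD98hc, encoded by Slc3a2, is the heavy chain of transporters that carry branched-chain and other large neutral amino acids.

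The composite site that ATF4 binds with a C/EBP partner reads TGATGNAA, and capitals that begin with TT are the same site read from the other strand. It was searched on both strands in the 250 bases before the RefSeq start of each gene. Of the 30 listed members with a promoter entry, 10 held it (33.3%), against 3.91% of 27025 genes. Vldlr was among these 10. Among the regulators, Nupr1 was the only member of 6 with the site, and 3 synthetases of 8, 3 amino acid enzymes of 10 and 3 stress effectors of 6 held it. The 30-base windows around the site are given for Nupr1, Chac1 and Asns, and for Herpud1, Gars and Tars because their levels differed between cell classes, a choice made after their values were seen. They read 5′ to 3′ on the strand of the gene, with the site in capitals, in GRCm38.p6 from RefSeq.
Nupr1: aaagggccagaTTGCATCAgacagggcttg
Chac1: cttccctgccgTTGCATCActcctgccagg
Asns: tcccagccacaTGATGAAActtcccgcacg
Herpud1: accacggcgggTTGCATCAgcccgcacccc
Gars: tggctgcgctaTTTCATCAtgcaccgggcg
Tars: caggagtcccgTTGCATCAgctggtt
The Nupr1 window lies at chr7:126625562-126625591 on the minus strand, with its site 110 bases before the start. The other windows are chr2:119351038-119351067 and chr6:7693214-7693243 (minus strand), chr8:94386306-94386335, chr6:55037960-55037989 and, cut short by the gene start, chr15:11399659-11399684 (minus strand). Nupr1, Chac1, Herpud1 and Tars share the same 8 letters. The sites of Pck2, Pycr1 and Aars were not printed. No entry was held for Eif4ebp1, Cth, Cars, Lars, Nars and Wars. A match describes letters and is not a measured binding site.

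After quality filters, 3213 of 5947 barcodes were kept, 1863 from control and 1350 from cKO mice. Summed UMI counts (unique molecular identifiers, each standing for 1 captured mRNA molecule) were 589135 to 3762314 per control mouse and 497531 to 2486236 per cKO mouse. Control mouse 3 with 85 cells and cKO mouse 5 with 83 cells were far smaller than the rest, and 24 of the 58 cells that Scrublet marked as doublets among cKO mice came from cKO mouse 5. Marked doublets were kept in the main results. 8 barcode codes of kept cells occurred in more than 1 library. Slc3a2, the targeted gene, gave 358, 264, 233 and 493 in the control mice and 291, 357, 323 and 309 in the cKO mice in CPM (counts per sum scaled to the same total, so that mice can be compared). The groups overlapped (log2 fold change 0.022, SE 0.21, adjusted p = 0.976), and since the counted tags lie at the 3′ end, they need not lie in the deleted part and do not check the deletion. Clustering without the members, the other gene lists below, Slc3a2 and the reporter gave 9 clusters. By markers, cluster 1 was lymphoid-like, clusters 3, 4 and 6 were macrophage-like, cluster 7 was stromal-like, cluster 8 was monocyte-like and cluster 9 was dendritic cell-like. Clusters 2 (led by Ccl24, Mmp12 and Cebpb) and 5 (led by Il1a, Arg2, Acod1 and Saa3) stayed unnamed. The labelled monocytes and macrophages were thus present, but so were cells outside that label.

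Of the members, Nupr1 alone passed the test between cKO and control mice when all cells of a mouse were summed. NUPR1 is a small stress-induced nuclear protein and a transcriptional cofactor. Its level was 133, 79.8, 121 and 142 in the control mice and 179, 240.0, 340.3 and 287 in the cKO mice, in CPM. All 4 cKO mice lay above all 4 control mice, and the mean was 119 ± 27.5 against 262 ± 68.7 (SD, n = 4 and 4). The edgeR quasi-likelihood test gave a log2 fold change 1.25, SE 0.23, adjusted p = 0.0124. It was 1 of 33 members tested, against 4.48% of all 11387 genes called (2.99% higher and 1.48% lower in cKO). Trib3 and Cth were too low to test, with at most 4.23 and 0.437 CPM in any mouse. No member was called lower. The fold change was positive for 17 of the 33, and the median log2 fold change of the members was 0.060, beside -0.030 over all genes tested.

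More cells held a Nupr1 UMI in the cKO mice. Per mouse, 36.5, 25.7, 42.4 and 34.2% of control cells and 47.0, 46.4, 59.3 and 52.3% of cKO cells held one. The groups did not overlap, and the 2-sided exact permutation test over the mice gave p = 0.0286, the smallest value that 4 against 4 mice allow (0.0857 after adjustment over the 3 genes compared in this way). With each cell thinned to 1000 UMIs, which left out 99 control and 79 cKO cells, the shares were 13.3, 8.61, 12.8 and 14.1% and 12.8, 19.1, 25.9 and 25.7%, they overlapped, and the exact permutation p was 0.114. As a low reference, 8.89% of the lymphoid-like cells held a Nupr1 UMI (95% Wilson interval 5.55 to 14.0%, counting error only) at a median of 3532.5 UMIs per cell. For Atf4 the share was 64.3% ± 6.17 against 57.9% ± 4.11 (exact permutation p = 0.143, n = 4 and 4), and for Ddit3 33.6% ± 6.26 against 39.0% ± 4.67 (exact permutation p = 0.257, n = 4 and 4).

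The Atf4 difference was smaller than the spread between mice. Its level was 205, 232, 359.9 and 265 in the control mice and 358, 235, 257 and 201 in the cKO mice, with the highest value of each group in its smallest library. The groups overlapped (log2 fold change 0.074, SE 0.22, adjusted p = 0.891), with a 95% interval of -0.40 to 0.55. Ddit3, which encodes the pro-apoptotic partner CHOP, reached 98.1, 119, 148 and 87.8 in the control mice and 191, 135, 128 and 136 in the cKO mice. Only control mouse 3 reached into the cKO range (log2 fold change 0.48, SE 0.19, adjusted p = 0.186). Cebpg, the C/EBP partner of ATF4, reached 21.8, 17.4, 37.3 and 11.1 in the control mice and 34.2, 26.0, 32.2 and 31.9 in the cKO mice, again with control mouse 3 highest among all 8 (log2 fold change 0.75, SE 0.29, adjusted p = 0.172). Atf5, a related factor, was low, with 11.9 ± 1.91 against 8.33 ± 1.54 (SD, n = 4 and 4; log2 fold change -0.47, adjusted p = 0.330).

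**Figure D1:**
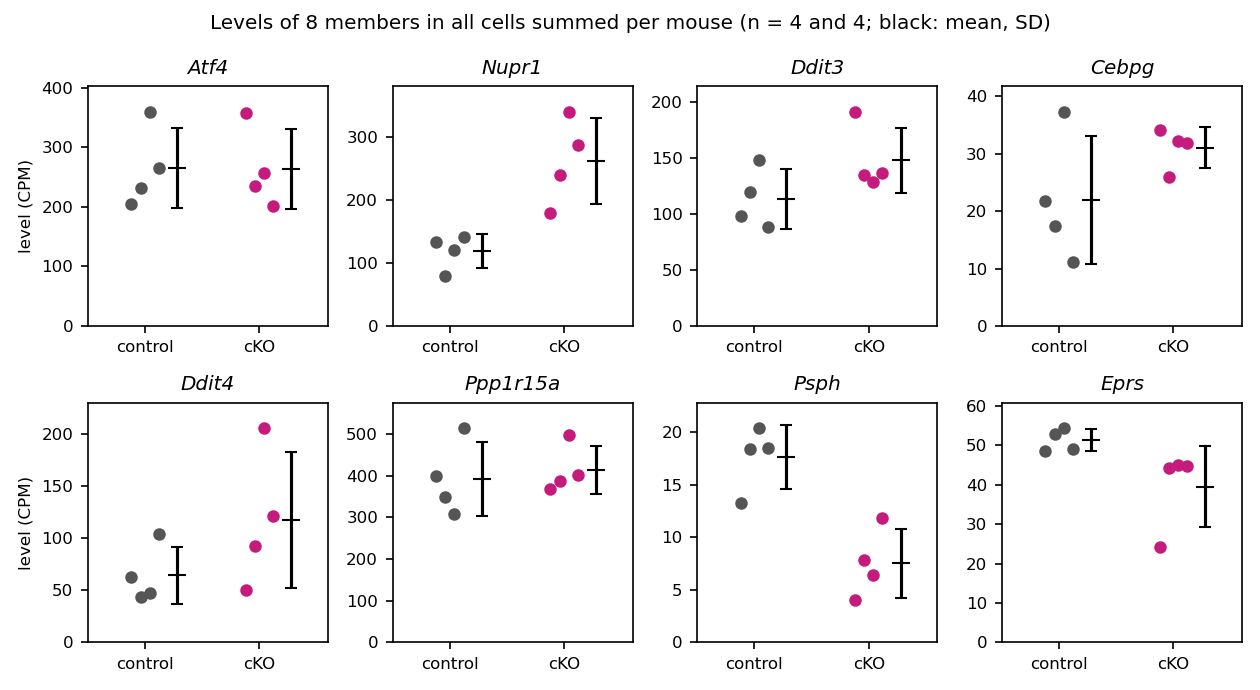
Levels in CPM (vertical axis, from 0) of 8 members in all cells summed per mouse, with 1 point for each of the 4 control and 4 cKO mice and the mean with its SD in black. Nupr1 lies higher in every cKO mouse than in every control mouse, Psph and Eprs lie lower in every cKO mouse, and Atf4, Ddit3, Cebpg, Ddit4 and Ppp1r15a overlap between the groups.

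Among the stress effectors, Ppp1r15a, Herpud1 and Eif4ebp1 had the highest UMI levels, counted once per molecule at the 3′ end and not divided by length. Ppp1r15a, which encodes the phosphatase subunit GADD34 that reverses eIF2alpha phosphorylation, was 392 ± 88.6 against 413 ± 57.6 (SD, n = 4 and 4; log2 fold change 0.17, adjusted p = 0.627). Herpud1, a component of endoplasmic reticulum-associated degradation, was 262 ± 36.3 against 234 ± 35.2 (log2 fold change -0.075), and Eif4ebp1, an inhibitor of cap-dependent translation, was 107 ± 11.4 against 131 ± 32.3 (log2 fold change 0.41). None of these passed the test. Ddit4, an inhibitor of mTORC1, gave 63.0, 43.4, 47.5 and 104 in the control mice and 50.2, 93.1, 206 and 121 in the cKO mice. cKO mouse 7 was highest, and cKO mice 5 and 6 lay within the range of the controls (log2 fold change 0.999, SE 0.37, adjusted p = 0.154). Sesn2, another inhibitor of mTORC1 signalling, stayed at 11.6 ± 0.699 against 13.9 ± 5.20, and Chac1, a glutathione-degrading enzyme, was at most 4.02 in any mouse.

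The enzymes and synthetases held no call in either direction. On simulated counts, the test on all cells recovered 28% of 2-fold and 97% of 4-fold changes. A missing call therefore does not show that a gene was unchanged. Recovery was not tested separately for genes as low as most of the enzymes. Mthfd2, Phgdh and Shmt2, enzymes of mitochondrial one-carbon metabolism and serine synthesis, were the highest of the enzymes. Mthfd2 was 59.4 ± 7.07 against 60.2 ± 12.5 (SD, n = 4 and 4) and Phgdh 17.6 ± 5.52 against 21.4 ± 8.64, and Shmt2 was 21.2 ± 4.02 against 16.1 ± 4.80. Psph, the last enzyme of serine synthesis, gave 13.3, 18.3, 20.4 and 18.5 in the control mice and 4.02, 7.86, 6.44 and 11.8 in the cKO mice. All cKO mice were below all control mice, but the difference missed the threshold (log2 fold change -0.95, SE 0.28, adjusted p = 0.0745). Among the synthetases, Nars was 111 ± 21.1 against 119.8 ± 15.0, Sars 65.8 ± 4.18 against 64.1 ± 9.35 and Eprs 51.2 ± 2.79 against 39.5 ± 10.2. Eprs was the only synthetase without overlap, with the cKO mice below, and its log2 fold change was -0.20 (adjusted p = 0.582). In all, 1 member lay above and 2 lay below without overlap, where 4% and 8.34% of all genes did. The summed UMIs of the 12 synthetases were 435 to 492 in the control mice and 362 to 459.5 in the cKO mice, and those of the 11 enzymes were 141 to 176 in the control mice and 102 to 169 in the cKO mice. The summed regulators, of which Atf4, Nupr1 and Ddit3 made up most, were 461 to 677 in the control mice and 649 to 772 in the cKO mice.

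The cell makeup moved with the condition, and in sums over all cells a change of makeup and a change per cell cannot be told apart. The summed level of the 10 monocyte markers was 1646 to 3369 in the control mice and 7115 to 10482 in the cKO mice, without overlap. The 10 dendritic cell markers were 1103 to 1324 in the control mice and 439 to 531 in the cKO mice, also without overlap. The macrophage markers were 11884 to 24235 in the control mice and 10022 to 17074 in the cKO mice, and the lymphoid markers were 129 to 8804 in the control mice and 4285 to 12958 in the cKO mice, both overlapping. Cluster 5 held 138 control and 388 cKO cells, cluster 8 held 143 and 280, the Fcrls-led cluster 3 held 328 and 39 and cluster 9 held 423 and 93. Nupr1 was highest in clusters 5 and 8 among the clusters with more than 1 mouse, and near its lowest in cluster 9. Cluster 5 had none of the 10 monocyte markers among its 10 leading genes and so stayed unnamed, but 9 of the 10 were detected in it at above their level in the other cells, as were 10 of 10 in cluster 8.

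Sums per mouse and cluster of at least 20 cells were fitted with cluster and condition as additive terms. Of 11359 genes, 5.38% were called in that fit, 3.64% higher and 1.74% lower in cKO, and of 33 members 3 were higher and none was lower. They were 3 of the 5 tested regulators. Nupr1 kept a smaller difference (log2 fold change 0.53, SE 0.12, adjusted p = 0.00331), with a positive value in 7 of 7 clusters. Ddit3 passed (log2 fold change 0.46, SE 0.11, adjusted p = 0.00394), positive in 6 of 7 clusters, at nearly the same size as in the sums over all cells. Cebpg passed as well (log2 fold change 0.88, SE 0.25, adjusted p = 0.0241), positive in 7 of 7. Sums of the same mouse are not independent in this fit, and neither are the signs across clusters. The share of all genes with such signs was not counted. In limma-voom with mice entered as random effects, added after seeing the data, Nupr1 (adjusted p = 0.0122) and Ddit3 (adjusted p = 0.0127) passed and Cebpg did not (adjusted p = 0.0520), beside 4.5% of genes called (3.22% higher and 1.28% lower). Both fits rest on 7 mice, since no cluster of cKO mouse 5 held 20 cells.

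Cells of the same cluster were not alike between the groups. The summed monocyte markers in cluster 8 were 11524 to 13716 CPM in 3 control mice and 15712 to 18583 in 3 cKO mice, and in cluster 5 they were 4864 to 5973 CPM in 2 control mice and 8726 to 11579 in 3 cKO mice, both without overlap. Ly6c2, a marker of inflammatory monocytes, was 1031 to 1471 CPM in 3 control mice and 2832 to 4368 in 3 cKO mice in cluster 8. Divided into 12 clusters, cluster 5 became one of 19 control and 222 cKO cells and one of 119 and 166, and cluster 6 became one of 94 and 161 and one of 212 and 9. The additive edgeR fit on these 12 clusters, added after seeing the data, called 3.49% of genes (2.51% higher and 0.986% lower) and 2 of 33 members, both higher. Nupr1 (log2 fold change 0.49, SE 0.14, adjusted p = 0.0301) and Cebpg (log2 fold change 0.99, SE 0.29, adjusted p = 0.0376) passed, and Ddit3 did not (log2 fold change 0.41, SE 0.13, adjusted p = 0.0595). The part of the shift within clusters in these differences was not tested.

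Atf4 was called in none of these fits. In the additive fit on 9 clusters its difference was -0.25 (SE 0.10, adjusted p = 0.163), and that of Ppp1r15a was -0.22 (SE 0.10, adjusted p = 0.242). Slc3a2 was lower there (log2 fold change -0.39, SE 0.12, adjusted p = 0.0373). It was also lower in limma-voom with mice as random effects (log2 fold change -0.42, adjusted p = 0.0413) but not called with 12 clusters (adjusted p = 0.0749). None of the 12 synthetases and 10 enzymes tested passed, and the lowest adjusted p-values among them were those of Gars (log2 fold change 0.54, adjusted p = 0.142) and Mthfd2 (log2 fold change 0.36, adjusted p = 0.222). The 15 dissociation and immediate early genes moved with the condition in the same fit, where 8 were lower and none was higher. The largest changes were those of Hspa1a (log2 fold change -0.90, adjusted p = 2.83e-07), Junb (log2 fold change -0.51) and Fos (log2 fold change -0.50), and the part of this list in the differences of the members was not tested. Without the dendritic cell-like, lymphoid-like and stromal-like clusters, the sums per mouse gave 0.92 for Nupr1 (adjusted p = 0.0250) and -0.075 for Ddit3 (adjusted p = 0.911), so the Ddit3 difference turned in sign.

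**Figure D2:**
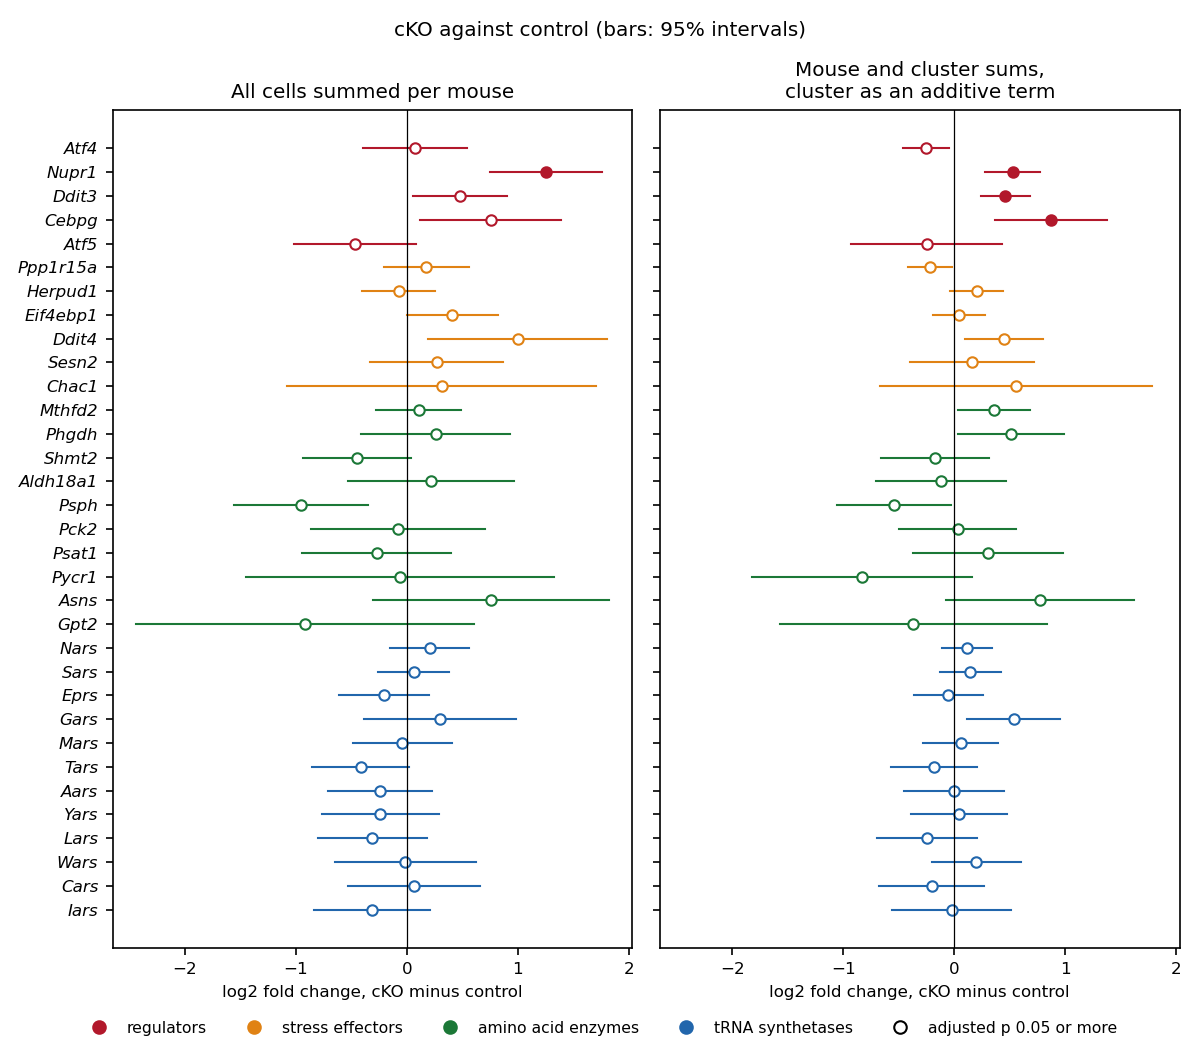
Log2 fold change of the 33 tested members, cKO minus control (horizontal axis), with 95% intervals, in all cells summed per mouse (left) and in mouse and cluster sums with cluster as an additive term (right). Filled points passed an adjusted p of 0.05, which were Nupr1 on the left and Nupr1, Ddit3 and Cebpg on the right. No synthetase passed on either side, although the interval of Gars on the right (0.12 to 0.96) lies above 0.

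Within single clusters 1 call was made among the members. The sums of all clusters were fitted together for these tests. Their p-values thus use a spread shared over clusters, with sums of the same mouse treated as independent. On simulated counts, the test in cluster 9 recovered 4% of 2-fold and 71% of 4-fold changes, with no separate test at low levels. Such changes can thus be missed. In the other tested clusters none was called, where 0.088% of genes were called in cluster 1, 0.264% in cluster 2, 0.0616% in cluster 4, 0.695% in cluster 5, 0.748% in cluster 6 and 0.211% in cluster 8. In cluster 9, the dendritic cell-like cells, Asns, the asparagine synthetase and a standard readout of the ATF4 response, gave 0.794, 3.26, 0 and 3.72 in the control mice and 29.8, 5.33 and 16.6 in the cKO mice, in CPM. All 3 cKO mice with enough cells lay above all 4 control mice (log2 fold change 2.68, SE 0.67, adjusted p = 0.0412), and Asns was 1 of 33 members tested, against 0.511% of genes called there. The counts behind it were few. In cKO mouse 6, 7 UMIs came from 1 of 25 cells. In cKO mouse 8, 6 UMIs came from 3 of 39 cells, with 4 in 1 cell, and in cKO mouse 7, 1 UMI came from 1 of 22 cells. The control mice held 1, 5, 0 and 4 UMIs in 1, 5, 0 and 2 cells. Leaving out cKO mouse 6 ended the call (adjusted p = 0.472), as did leaving out cKO mouse 7 or 8 or control mouse 1, 2 or 3. Fitting cluster 9 alone in edgeR also ended it (adjusted p = 0.186).

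Ddit3 lay higher in the cKO mice without overlap in 3 of the 7 tested clusters. In the monocyte-like cluster 8 it was 76.1, 93.2 and 111 in the control mice and 148, 155 and 140.3 in the cKO mice (log2 fold change 0.82, SE 0.27, adjusted p = 0.360). In the dendritic cell-like cluster 9 it was 48.4, 56.1, 66.7 and 48.4 in the control mice and 80.8, 95.9 and 108 in the cKO mice (log2 fold change 0.81, SE 0.26, adjusted p = 0.286). In cluster 2 it was 149, 173, 186 and 101 in the control mice and 200.5, 247 and 187 in the cKO mice (log2 fold change 0.54, SE 0.27, adjusted p = 0.763). None of these passed within its cluster. Across the 33 members and all 7 clusters, groups without overlap were few, and they are set against the share of all genes in the same cluster. In cluster 8, 2 members lay above (6.41% of genes), Ddit3 and Mthfd2, and none below (6%). In cluster 9, 3 lay above (3.16%), Asns, Gars and Ddit3, and Psph lay below (5.03%). In cluster 2, 3 lay above (2.73%), Ddit3, Herpud1 and Aars, and none below (2.83%). In the macrophage-like cluster 6, 5 lay above (7.32%), Sars, Gars, Cebpg, Herpud1 and Wars, and Yars lay below (7.72%). In the macrophage-like cluster 4, Nupr1 lay above (2.58%) and Aldh18a1 below (2.59%). In cluster 5, with 2 control mice, Cebpg and Eif4ebp1 lay above (11.3%), and Yars, Sesn2, Atf5, Ppp1r15a and Atf4 lay below (12.7%). In the lymphoid-like cluster 1, Nupr1 lay above (4.02%) and Psph, Mthfd2, Shmt2 and Tars below (5.2%), of which Shmt2 had the lowest adjusted p (log2 fold change -2.22, SE 0.57, adjusted p = 0.129).

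Nupr1 varied widely between clusters, and its cKO values overlapped those of the controls in 5 of the 7 tested. In cluster 8 it was 364, 279.6 and 261 in the control mice and 408, 356 and 439 in the cKO mice (log2 fold change 0.56, SE 0.26, adjusted p = 0.748). In cluster 5 it was 352 and 281 in the control mice and 349.7, 486 and 362 in the cKO mice (log2 fold change 0.50, SE 0.29, adjusted p = 0.732). In both, 1 control mouse reached into the cKO range. In the macrophage-like cluster 4, whose cells held little RNA, it was 72.1, 89.8 and 66.7 in the control mice and 122, 201 and 137 in the cKO mice, without overlap (log2 fold change 1.02, SE 0.54, adjusted p = 0.857), and in the macrophage-like cluster 6 it was 173, 149.6 and 218 in the control mice and 138, 185 and 296 in the cKO mice (log2 fold change 0.19, SE 0.26, adjusted p = 0.899). In the lymphoid-like cluster 1, outside the labelled cell types, it was 8.71, 7.88 and 7.26 in the control mice and 15.2, 33.4 and 49.0 in the cKO mice, also without overlap but from few UMIs (log2 fold change 2.01, SE 0.81, adjusted p = 0.650). The difference between the response of the dendritic cell-like and the monocyte-like cluster was 0.27 (SE 0.44) for Nupr1 and -0.012 (SE 0.45) for Ddit3, with adjusted p = 1 and 1.

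**Figure D3:**
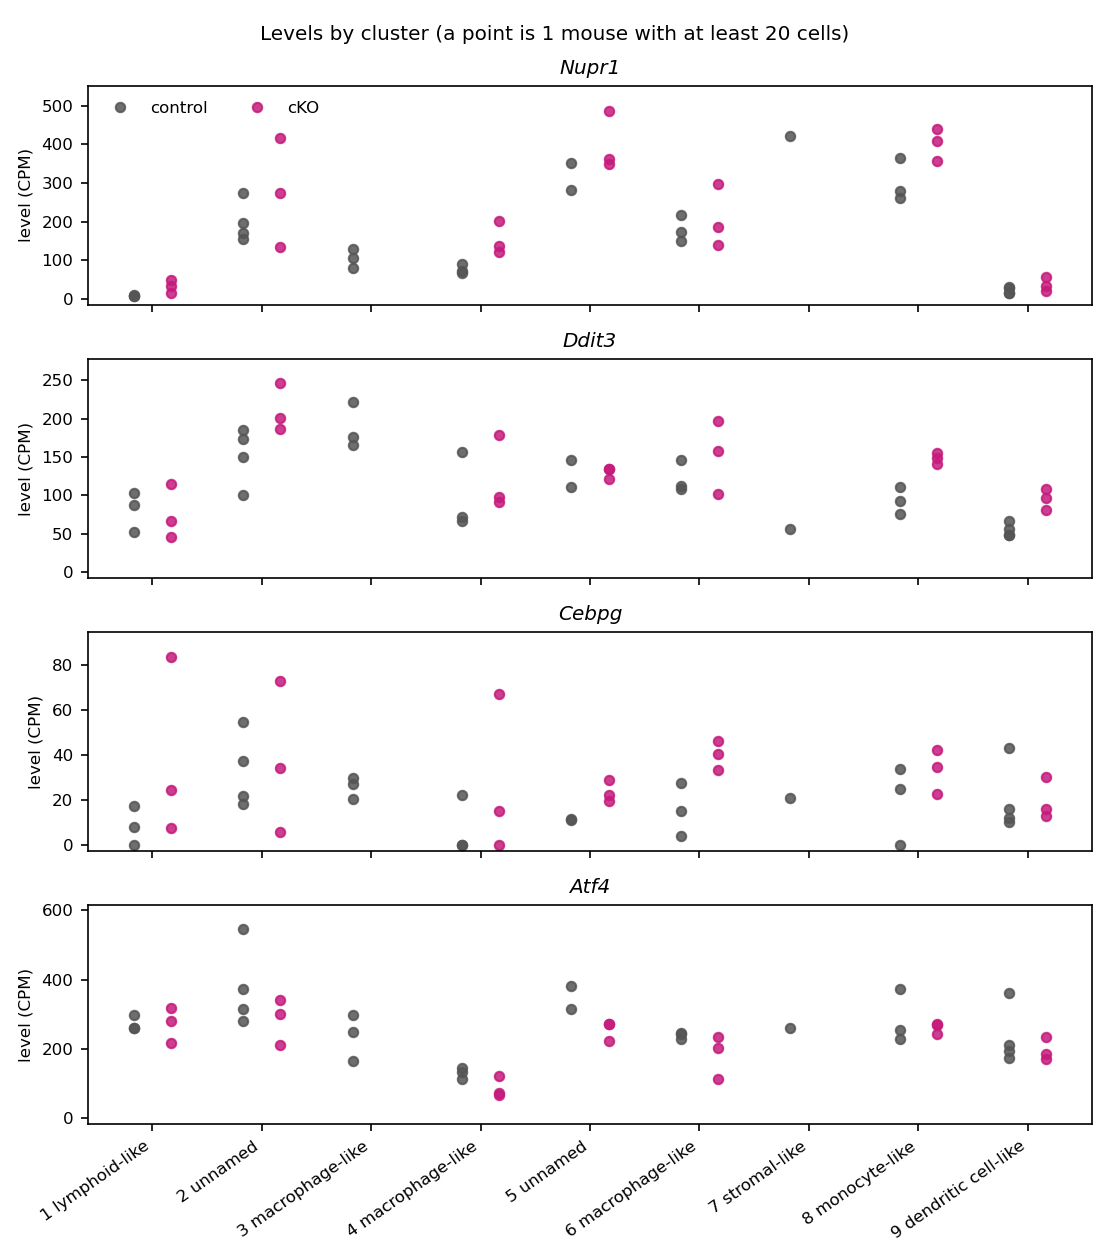
Levels in CPM (vertical axes) of Nupr1, Ddit3, Cebpg and Atf4 in each of the 9 clusters, with 1 point for each mouse that held at least 20 cells, control in grey and cKO in pink. Nupr1 is high in clusters 5 and 8 and low in clusters 1 and 9, and Ddit3 does not overlap between the groups in clusters 2, 8 and 9.

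Between the dendritic cell-like and the monocyte-like class of the same 6 mice, 14 of 33 members were higher and 5 lower, beside 15.3% and 13.7% of 11185 genes and 29% in all (edgeR with the mouse as a block). Clustering did not use the members, but it grouped cells by other genes, so many genes differ between the classes. All 5 members of the serine and one-carbon route from Phgdh to Mthfd2 were higher in the dendritic cell-like class. Phgdh, the first enzyme of serine synthesis, was 43.0 against 3.07 CPM (mean of 6 mice; log2 difference 3.36, SE 0.44, adjusted p = 8.76e-09). Psat1 was 23.7 against 3.11 (log2 difference 2.74, SE 0.51, adjusted p = 1.90e-05) and Psph 20.1 against 6.91 (log2 difference 1.83, SE 0.44, adjusted p = 7.47e-04). Shmt2 was 34.5 against 6.75 (log2 difference 2.45, SE 0.37, adjusted p = 2.92e-07), and Mthfd2 was 111 against 43.9 (log2 difference 1.30, SE 0.21, adjusted p = 1.60e-06). Each of the 5 was higher in 6 of 6 mice. Phgdh spanned 21.3, 26.2 and 93.5 (lowest, median and highest of 7 mice) in the dendritic cell-like cluster 9 and 0, 2.96 and 8.25 (6 mice) in the monocyte-like cluster 8, without overlap.

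Of the 12 synthetases, 8 were higher in that comparison and none was lower: Iars (1.80), Yars (1.39), Lars (1.29), Mars (1.11), Tars (1.07), Aars (0.74), Eprs (0.68) and Gars (0.63), as log2 differences. The other 4 were positive without passing. Of the other cytosolic synthetases and their scaffold proteins, kept as a separate list, 6 of 11 were higher and none was lower, and of the mitochondrial synthetases 1 of 17 was higher. The median log2 difference was 0.71 for the 12 members, 0.68 for the other cytosolic ones and 0.38 for the mitochondrial ones, beside 0.087 for all genes.

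Of the 5 tested regulators, 3 were lower in the dendritic cell-like class and none was higher. Nupr1 spanned 14.3, 27.8 and 55.3 (lowest, median and highest of 7 mice) in cluster 9 and 261, 360.0 and 439 (6 mice) in cluster 8, without overlap. In the 6 mice with both, its mean was 27.8 against 351 CPM in the dendritic cell-like and monocyte-like classes, lower in 6 of 6 mice (log2 difference -3.74, SE 0.18, adjusted p = 3.49e-24). Ddit3 was 72.9 against 121 (log2 difference -0.97, SE 0.19, adjusted p = 2.96e-05) and Atf4 195 against 273 (log2 difference -0.50, SE 0.13, adjusted p = 0.00285). Cebpg (log2 difference -0.53, SE 0.32, adjusted p = 0.223) and Atf5 (log2 difference 0.56, SE 0.56, adjusted p = 0.510) were not called. Of the 6 stress effectors, Ppp1r15a (-0.98) and Eif4ebp1 (-0.96) were lower and Herpud1 was higher, at 284 against 107 (log2 difference 1.24, SE 0.17, adjusted p = 1.35e-08). When the dendritic cell-like cells were split further (last section), Ppp1r15a was low in the Xcr1-led cells. In the Cd209a-led cells it lay near its level in cluster 8, and this split was not tested. The dissociation and immediate early list moved as well, with 11 of 15 lower and 1 higher, and its part in the lower Ppp1r15a and Ddit3 was not tested. Cells of cluster 9 held a median of 9202 UMIs and those of cluster 8 a median of 5121.

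Against the macrophage-like class, the dendritic cell-like class of 7 mice showed 15 members higher and 5 lower, beside 17.6% and 17.2% of genes (34.8% in all). Phgdh differed most (40.2 against 1.68; log2 difference 4.84, SE 0.40, adjusted p = 3.47e-15), and 7 of 10 enzymes and 7 of 12 synthetases were higher. Nupr1 (-2.70), Ddit3 (-1.31), Cebpg (-0.67), Ppp1r15a (-0.80) and Eif4ebp1 (-0.61) were lower. Atf4 was not called there (log2 difference -0.041, 95% interval -0.29 to 0.20). Between the macrophage-like and monocyte-like classes of 6 mice, 4 members were higher and 2 lower, beside 9% and 8.43% (17.4% in all). Herpud1 (log2 difference 1.38, SE 0.16, adjusted p = 1.20e-09), Shmt2 (log2 difference 1.51, SE 0.40, adjusted p = 0.00452), Iars (log2 difference 1.37, SE 0.47, adjusted p = 0.0353) and Ddit4 (log2 difference 0.64, SE 0.21, adjusted p = 0.0273) were higher. Nupr1 (log2 difference -1.04, SE 0.14, adjusted p = 7.87e-08) and Atf4 (log2 difference -0.46, SE 0.13, adjusted p = 0.00821) were lower. The macrophage-like class held cluster 3 mostly in control mice and clusters 4 and 6 in both, and with the Fcrls-led cluster 3 alone as that class, chosen after the values were seen, Ddit4 was no longer higher (-0.057).

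**Figure D4:**
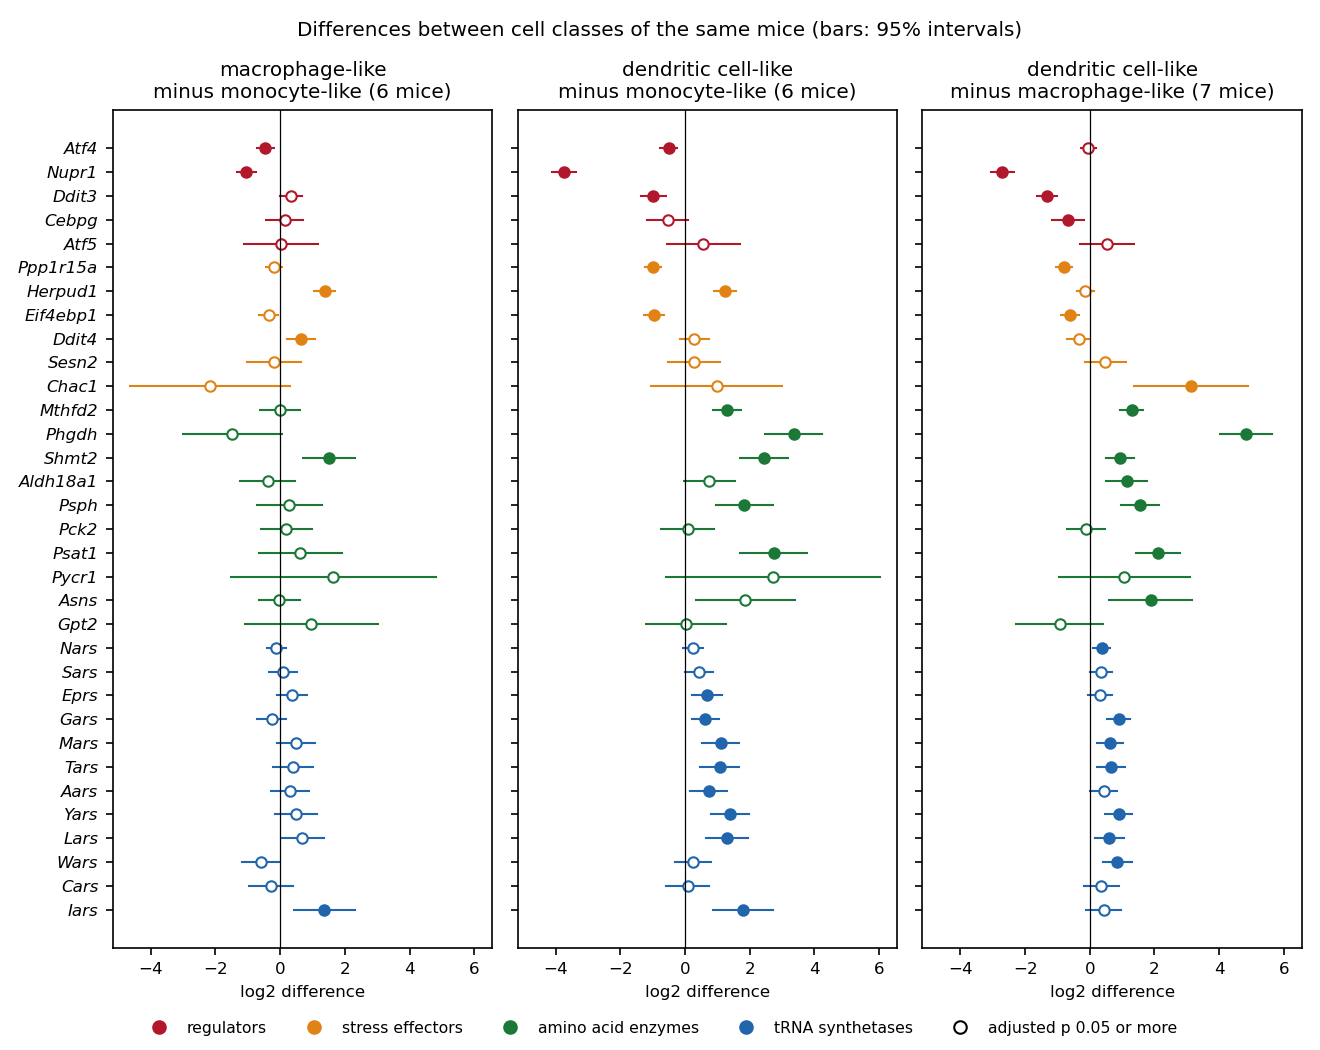
Log2 difference of the 33 tested members between pairs of cell classes of the same mice (horizontal axes), with 95% intervals, filled where the adjusted p was under 0.05. In the dendritic cell-like class the serine and one-carbon enzymes and most synthetases lie to the right and Nupr1, Ddit3, Ppp1r15a and Eif4ebp1 to the left.

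As a description over the 8 clusters with more than 1 mouse, 16 of the 35 members had their highest mean in the lymphoid-like cluster 1 and 9 in the dendritic cell-like cluster 9. Cluster 1 was led by Jchain and Mzb1, and its leading genes also held Gzmb, Cd79a, Cd3g and Nkg7. Its levels were not split by type of lymphoid cell. Phgdh was 179.6 ± 34.1 CPM there (SD, n = 6 mice), next to 40.2 ± 25.9 in cluster 9 (n = 7), and 0 to 3.71 in the 6 macrophage-like, monocyte-like and unnamed clusters. Herpud1 was 719.6 ± 294 and Mars 82.2 ± 20.6 in cluster 1. Psph was 55.4 ± 25.2 there, Pycr1 50.2 ± 31.7, Pck2 48.0 ± 18.2 and Asns 35.6 ± 18.9. The next values were 21.7 ± 7.53 for Psph and 8.49 ± 10.9 for Asns, both in cluster 9, and the mice of clusters 1 and 9 overlapped for both genes.

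Nupr1 levels ordered the clusters differently. They were 366 ± 74.4 in cluster 5 (n = 5), 351 ± 69.9 in cluster 8 (n = 6), 231 ± 97.9 in cluster 2 (n = 7), 193 ± 57.7 in cluster 6 (n = 6), 115 ± 50.6 in cluster 4 (n = 6), 104 ± 24.4 in cluster 3 (n = 3), 28.3 ± 14.0 in cluster 9 (n = 7) and 20.3 ± 17.2 in cluster 1 (n = 6). The stromal-like cluster 7 gave 422 in its 1 control mouse. Neighbours in that order overlapped between mice except clusters 3 and 9, and every mouse of clusters 9 and 1 lay below every mouse of the other clusters. Atf4 varied less, from 109 ± 31.7 in the RNA-poor cluster 4 to 338 ± 104 in cluster 2. Atf5 stood at 155 in the stromal-like cluster and at 1.06 to 10.8 in the others. Trib3, Cth, Gpt2 and Chac1 were at or below 6.66 in every cluster of more than 1 mouse. Ddit3 and Mars overlap at their 3′ ends on opposite strands of chromosome 10, and the counted reads keep their strand.

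**Figure D5:**
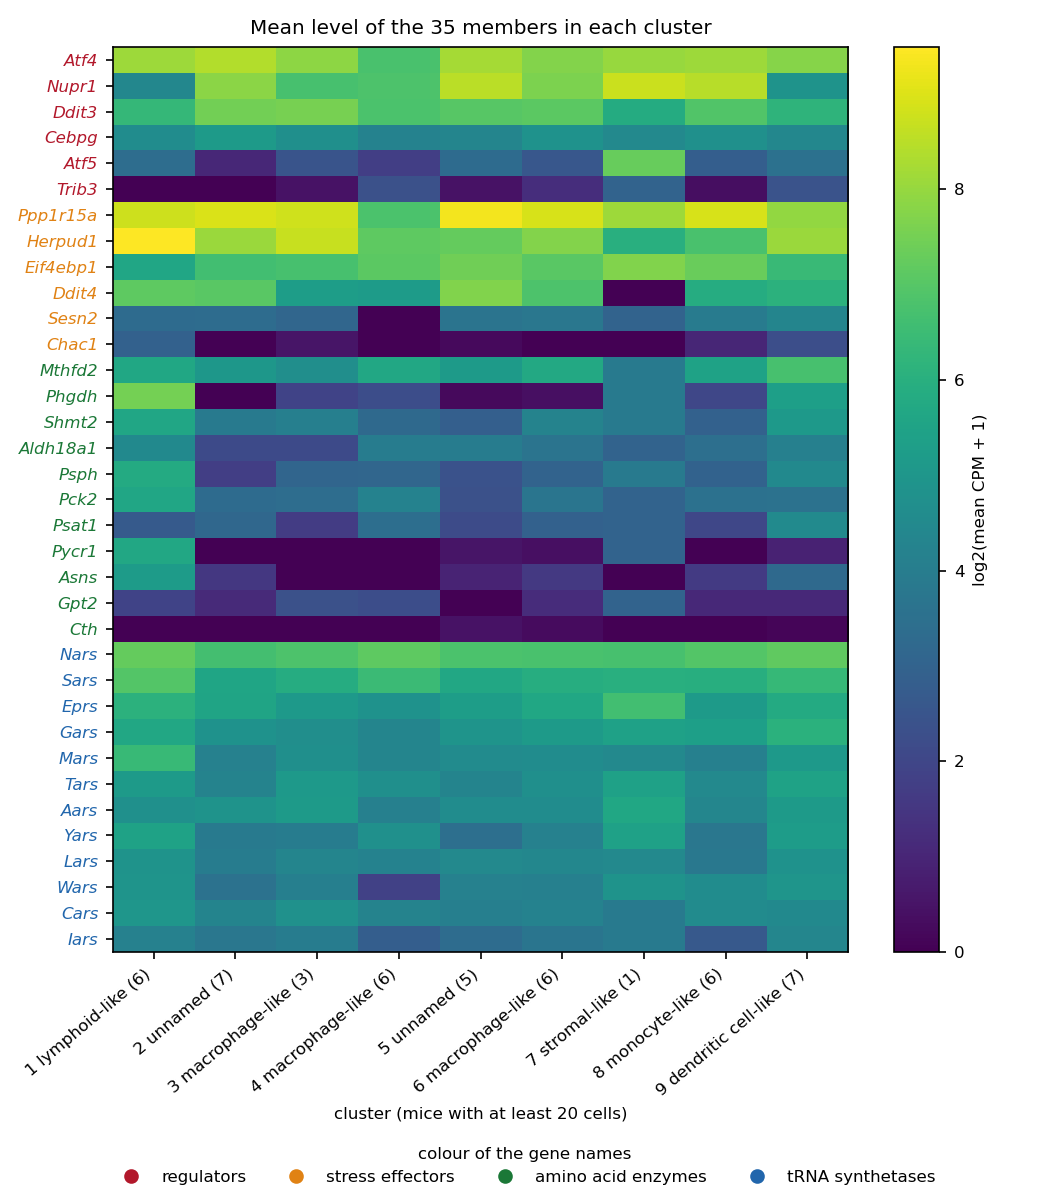
Mean level of the 35 members (rows, by role) in each of the 9 clusters (columns), as log2 of the mean CPM plus 1 over the mice given in parentheses. Phgdh, Psph, Pycr1, Asns and Herpud1 are highest in the lymphoid-like cluster, Mthfd2 in the dendritic cell-like cluster and Nupr1 in cluster 5, cluster 8 and the stromal-like cluster.

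Other genes of the pathway, kept in lists beside the members, gave few calls in the sums over all cells. Of the 13 eIF2alpha kinases and sensors, only Eif2ak2, which encodes the double-stranded RNA sensor PKR and is itself induced by interferon, was higher (log2 fold change 1.02, SE 0.21, adjusted p = 0.0198). Gcn2, encoded by Eif2ak4, was not called (log2 fold change -0.65, adjusted p = 0.302). Of 12 tested other ATF4 targets, Cebpb (log2 fold change 1.36, SE 0.33, adjusted p = 0.0391) and Vegfa (log2 fold change 1.57, SE 0.34, adjusted p = 0.0234) were higher and none was lower. With cluster as a term in edgeR, Vegfa stayed higher (log2 fold change 0.86, adjusted p = 0.0203) and Atf3 was lower (log2 fold change -0.75, SE 0.13, adjusted p = 1.50e-05). Cebpb was not called in that fit (log2 fold change 0.56, adjusted p = 0.0603) but passed in its limma-voom form (adjusted p = 0.0472). None of 8 tested amino acid transporters passed, and of 17 genes of the unfolded protein response Edem1 alone did (log2 fold change 0.76, SE 0.17, adjusted p = 0.0262). The interferon list moved with the condition, with 9 of 14 tested genes higher and none lower, and a summed level of 579 to 895 in the control mice and 1920.3 to 3267 in the cKO mice, without overlap. The largest changes in it were those of Irf7 (log2 fold change 2.97), Isg15 (2.65) and Oasl2 (2.55), and its part in the higher Nupr1 was not tested. The immediate early list held no call in these sums, and the other cytosolic and the mitochondrial synthetases held none of 11 and none of 17.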

How the data were processed

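Droplet RNA-seq (10x Chromium Single Cell 3′ v2) was run on sorted colonic cells, 1 library per mouse. The authors deposited 1 table of raw UMI counts per gene and barcode, made with Cell Ranger, which aligns with STAR (2.5.3a in the submitters' processing notes), against mm10. R 3.5.0 is also listed there. Every barcode column was assigned to a mouse by its name. Following the study's filters, barcodes were kept with log10 UMIs of at least 2.8, log10 genes of at least 2.6, at most 5% mitochondrial UMIs and no hemoglobin UMI, and kept cells held a median of 4149 to 5538 UMIs per mouse. Counts were grouped with scran 1.30.0 and scater 1.30.1 in R 4.3.3 (9 principal components, 9 clusters, 142 listed genes left out), and doublets were marked but kept (Scrublet in scanpy 1.11.5). A cluster took the name of the class with the most markers among its 10 leading genes by fold, if at least 3 markers of that class were detected (in at least 10% of its cells and above the other cells).

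Counts were summed per mouse, per mouse and cluster, or per mouse and class, with at least 20 cells per sum, and tested with the quasi-likelihood test of edgeR 4.0.16, TMM factors and Benjamini-Hochberg adjustment over all genes at 0.05. A gene was tested with more than 1 CPM in at least 3 sums and a UMI in at least 20 cells. Levels are given in CPM, with the UMIs of each sum scaled to an equal total. Tests within single clusters were contrasts of a joint fit over all mouse and cluster sums, with a mean per cluster and condition. Class comparisons carried the mouse as a block. Groups came from the labels. In the sums per mouse, p-values measure the spread between mice, and in class comparisons the spread left after the mouse. In fits that joined mouse and cluster sums, sums of the same mouse were treated as independent, except in limma-voom with mice as random effects. limma 3.58.1 and DESeq2 1.42.0 gave alternatives. Python 3.11.15 and scipy 1.17.1 gave the shares and exact tests. The edgeR test was run on simulated counts for all cells, cluster 9, the additive fit and the dendritic cell-like against monocyte-like class. Other comparisons, limma-voom and DESeq2 were not simulated. Recovery was not split by the level of a gene. The simulated sums were independent, so the additive fit was not tested under dependence between sums of a mouse.

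The members and gene lists were chosen with earlier results of these data known. By the rule for named genes, Atf4, Slc3a2 and members past the threshold are given with every mouse, the 3 highest members of each role by level, and up to the 3 largest called changes of each other list. Further members were named after their values were seen. The interval of a share covers counting error only. Those of fold changes cover the spread between mice in the sums per mouse. In fits that joined mouse and cluster sums, they treat sums of the same mouse as independent.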

Additional observations from a re-analysis of the deposited data

Results flagged for a closer look

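Over the groups of 4 mice, each member's highest and lowest mouse was compared with the rest of its group, which flags about 1 in 20 groups by chance, and 3 of 66 groups stood out. Ddit3 in cKO mouse 5 was 191 CPM, beside 128 to 136 in the other cKO mice. Eprs in cKO mouse 5 was 24.1, beside 44.1 to 45.0. Lars in cKO mouse 8 was 22.3, beside 16.1 to 16.3. cKO mouse 5 was the library of 83 cells, of which 24 were marked as doublets.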

How the results depend on the processing

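No paired analysis was possible because control mice carry the numbers 1 to 4 and cKO mice 5 to 8, so the groups share no number. Of the counts and shares recomputed, 306 stayed close, 37 moved and 1 was weaker, and of the values of single members, 684 kept their direction and side of the threshold, 58 were weaker, 6 were stronger and 30 turned in sign.

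In all cells summed, the Nupr1 call held under all settings run. The members higher in cKO numbered 1 to 2 when single mice were left out (Cebpg passed without control mouse 3 and Ddit4 without control mouse 4), 3 with cluster as an additive term, and 2 both in the limma-voom form of that fit and with 12 clusters as a term, which were chosen after seeing the data. Over all genes, 787 were called with no filter on low counts, 326 without the dendritic cell-like, lymphoid-like and stromal-like clusters and 155 to 738 without single mice. Signs turned for genes that were not called in these sums. Atf4 was -0.016 with library size only, -0.10 without those clusters, -0.25 with cluster as a term in either fit and -0.23 with 12 clusters, and lay between -0.073 and 0.26 without single mice. Slc3a2 was -0.079 with library size only, -0.048 without the mice of under 100 cells, -0.070 without marked doublets, -0.38 without those clusters, -0.39 with cluster as a term, -0.42 in its limma-voom form, -0.36 with 12 clusters, and -0.10 to 0.26 without single mice. Ppp1r15a was -0.16 without those clusters, and -0.22, -0.26 and -0.19 with cluster as a term in edgeR, limma-voom and the 12-cluster fit. Herpud1 was 0.20, 0.23 and 0.13 in those fits and -0.14 to 0.016 without single mice. Ddit3 was -0.075 without those clusters. Chac1 was -0.39 to 0.66 without single mice.

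In cluster 9, 0 members were higher with DESeq2 (which gave no adjusted p for Asns), with the cluster fitted alone, and with 7 clusters, 12 clusters or clustering on all genes, where Asns gave adjusted p = 0.186, 0.102, 0.0836 and 0.0809. Without single mice the count was 0 to 1. Over all genes, the calls there numbered 17 fitted alone, 38 with 7 clusters, 38 with 12, 22 with clustering on all genes and 22 to 81 without single mice. limma-voom with mice as random effects called 1 member lower in cluster 6, Ppp1r15a (log2 fold change -0.73, adjusted p = 0.0455). Nupr1 in cluster 6 was -0.25 to 0.42 without single mice.

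Between classes, DESeq2 called 2 members higher in macrophage-like than monocyte-like cells and 9 in dendritic cell-like than macrophage-like cells. Without single mice the former comparison gave 2 to 4 higher and 1 to 2 lower. With the Fcrls-led cluster alone as macrophage-like, 1 was lower and Ddit4 was -0.057. Leaving out single mice ended the calls of Aars (control 1 or 2, cKO 6 or 8), Eprs (control 4, cKO 6 or 8), Gars and Tars (cKO 8) between dendritic cell-like and monocyte-like cells, of Asns (control 2, cKO 6), Cebpg (control 1 or 2, cKO 6 or 7), Lars (control 1 or 2), Mars (control 1) and Nars (control 1, cKO 6) between dendritic cell-like and macrophage-like cells, and of Atf4 (cKO 8), Ddit4 (control 2, cKO 6 or 7) and Iars (control 1, 2 or 4, cKO 6 or 8) between macrophage-like and monocyte-like cells. With cells thinned to 1000 UMIs, the Nupr1 share differed by 8.69 percentage points. Its exact permutation p before adjustment rose from 0.0286 to 0.114. After adjustment over the 3 genes, the unthinned share did not pass either (0.0857). Where the cause of a change is not given by the setting itself, the cause was not tested. Depth limits the low members, and members at a few UMIs per cluster, such as Asns, could not be compared precisely.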

Other observations

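With 12 clusters, a setting that split the dendritic cell-like cells, levels of several members differed between the resulting clusters. One cluster of 243 cells was led by Cd209a, Ccl17 and Ccr7, and one of 273 cells by Xcr1 and Clec9a, which mark cross-presenting conventional dendritic cells. The values are means over the 3 and 4 mice with at least 20 cells in the Cd209a-led and Xcr1-led cluster, in that order, in CPM with SD, and were not tested. Cells held a median of 7577.0 and 11168 UMIs in that order. The clusters held 198 and 225 control cells and 45 and 48 cKO cells, in the same order. Mice were taken without regard to condition, so condition and cluster were not separated. Phgdh was 11.1 ± 2.06 and 56.2 ± 26.3, Psat1 15.0 ± 1.74 and 33.5 ± 16.3 and Mthfd2 82.1 ± 4.83 and 124 ± 27.0. Shmt2 was 26.4 ± 6.24 and 42.0 ± 12.6. Of the stress effectors, Ppp1r15a was 452 ± 76.5 and 133 ± 28.2, Ddit4 113 ± 40.7 and 15.7 ± 10.7 and Sesn2 16.5 ± 7.49 and 9.02 ± 3.36. Eif4ebp1 was 68.8 ± 14.4 and 89.7 ± 21.8, Herpud1 279.6 ± 61.4 and 283 ± 57.9 and Chac1 3.18 ± 2.48 and 2.62 ± 1.99. Nupr1 was 44.4 ± 17.3 and 10.9 ± 13.9, and Ddit3, at 62.0 ± 9.91 and 61.5 ± 34.6, was nearly level.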
